A study of Citrus sinensis with 6 samples.

Results

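Plant disease resistance protein genes were followed on a citrus microarray through the loss of the shoot tip in sweet orange. Members were taken by name alone. A probe set, the group of probes that reports 1 target, was a member when the array's name for the best protein match of its target began with disease, nbs, tir, cc-nbs, resista or ndr1, after any leading putative or probable was removed. The rule used no signal and gave 166 of the 30171 citrus probe sets. Of these, 43 had names beginning with disease, 53 with nbs or cc-nbs, 69 with resista and 1 with tir, and none began with ndr1.

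In sweet orange the tip of each spring shoot stops growing, yellows and is shed at an abscission zone, a process called self-pruning. Shoot tips that included the abscission zone were collected from adult, field-grown trees of the 'Cara Cara' navel orange at 3 stages, and total RNA was hybridized to the Affymetrix Citrus Genome array. Stage 1 was 3 days before self-pruning, stage 2 was the beginning of self-pruning, when the separation layer could be seen, and stage 3 was 7 days after self-pruning, when the tissue around the abscission zone had begun to die. No stage had a treatment or a genetic change, and all trees were of 1 cultivar. The labels name 2 biological replicates per stage and call the tissue shoot meristems, and the methods describe replicate shoots as drawn from groups of trees, so each array holds RNA of several organs and cell types.

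Most proteins of this kind are intracellular immune receptors with a nucleotide-binding site (NBS) and leucine-rich repeats (LRR). The LRR part takes part in recognising a pathogen effector or the host protein it alters, and the NBS part acts as a switch that binds nucleotides. Receptors that begin with a TIR domain signal in Arabidopsis through EDS1 and its partners, whereas many with a coiled-coil (CC) start form pores in the plasma membrane or act with helpers. Their activation can end in the hypersensitive response, a local programmed cell death. A name that begins with disease resistance is broader, since it also takes in disease resistance response proteins, which in pea belong to the dirigent proteins of lignan and lignin chemistry rather than to the receptors.

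The members stood for 153 target transcripts and 86 different best protein matches. The matches were weak for 35 of the 166, with e-values above 1e-10, and 108 targets were built from a single expressed sequence tag (EST). Probes of 21 members are marked by the manufacturer as shared between transcripts (10 with _s_at and 11 with _x_at identifiers), so closely related receptor genes may contribute to the same signal. Signals are log2 values and are compared only within a probe set. The members' signals lay between 3.49 and 11.59 over all arrays and the median of their mean signals was 5.44. For 76 of the 166, no array gave a signal above 5.67, the highest signal of any reporter-gene control on these arrays, and the 23 random-sequence controls had a median of 7.90. A true zero was thus not known, and a signal low in all arrays was taken as a level near background and not as absence. Where a member starts near that level, its printed change is the difference in signal, which can be smaller than that in transcript.

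The larger changes in the members were those at stage 3, and they were mostly upward. With stage 3 set against stage 1, 84 of the 166 members rose, or 50.6%, and 20 fell, or 12.0% (limma, Benjamini-Hochberg adjusted p under 0.05 over all citrus probe sets, n = 2 arrays per stage). Over the whole array 29.9% rose and 35.9% fell in the same comparison. The members' median change was 0.22 on the log2 scale and the array's was -0.04. Beginning-stage tips differed less: against stage 1, 31 members rose at stage 2, or 18.7%, and 9 fell, or 5.42%, with 20.2% and 21.5% of all probe sets rising and falling. The share of members that rose at stage 2 was thus close to that of the array, while the share that fell was lower. The stage 2 counts of members were lower without replicate 1 of stage 1 or replicate 2 of stage 2, fits that leave 1 array in a stage. The array's shares were lower in these fits as well. Stage 3 against stage 2 gave 72 rises, or 43.4%, and 28 falls, or 16.9%, where the whole array gave 29.1% and 36.5%. These comparisons share arrays with each other and are not independent.

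**Figure D1:**
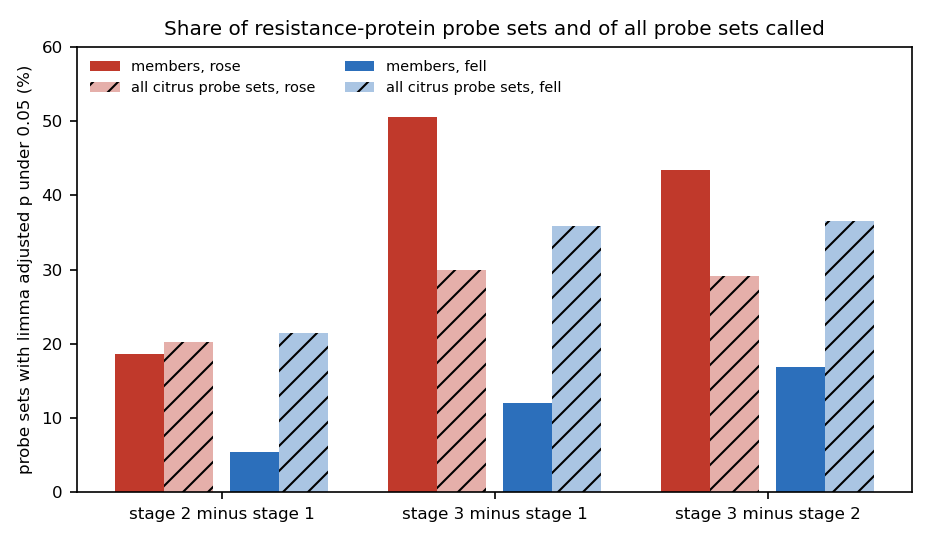
Share of the 166 resistance-protein probe sets (solid bars) and of all 30171 citrus probe sets (hatched bars) with a limma adjusted p under 0.05, in percent, for rises (red) and falls (blue) in each comparison of stages. In both comparisons with stage 3 the members' share of rises, 50.6% and 43.4%, stands above that of the array, 29.9% and 29.1%, and their share of falls stands below it.

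Sizes were modest at stage 2 and larger at stage 3. No member moved by 2-fold or more at stage 2, where the members' changes ran from -0.73 to 0.59, and 0.759% of all probe sets rose and 1.15% fell by that much. At stage 3, 27 members on 22 targets were at least 2-fold above stage 1 with an adjusted p under 0.05. That is 16.3% of the members, and 7.56% of the array rose as far. A single member, Cit.35562.1.S1_at, fell that far, or 0.602%, and 6.08% of all probe sets did. Relative to stage 2, 24 members on 19 targets had risen at least 2-fold at stage 3, or 14.5%, beside 7.14% of the array, and 1 had fallen as far, or 0.602%, beside 4.76%. The study used 4-fold and a p of at most 0.001 for its DEGs. At these thresholds, with limma's unadjusted p, 9 members on 7 targets, or 5.42%, rose and 0 fell at stage 3 against stage 1. Over all probe sets 2.16% rose and 1.25% fell. The arrays of the 2 stages did not overlap for 94 members that were higher and 29 that were lower at stage 3 than at stage 1, or 56.6% and 17.5%, and over the whole array for 37.6% and 44.3%.

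The sets of names moved to different degrees. Of the 43 members named as disease resistance proteins, 25 rose and 6 fell at stage 3 against stage 1, with a median change of 0.31. The 69 named as resistance proteins gave 38 rises and 7 falls, with a median of 0.27. Among the 53 NBS-LRR members 21 rose and 7 fell, and the median was 0.10, nearest to the array's -0.04. Set against stage 2, stage 3 gave 23 rises and 8 falls in the disease resistance names, 32 and 10 in the resistance names and 17 and 10 in the NBS-LRR names. The rises were 53.5%, 46.4% and 32.1% of the sets, beside the array's 29.1%, and the falls 18.6%, 14.5% and 18.9%, beside 36.5%. Against stage 1 the rises were 58.1%, 55.1% and 39.6%, beside 29.9%, and the falls 14.0%, 10.1% and 13.2%, beside 35.9%. The NBS-LRR rises against stage 2 were thus near the array's share. The differences between these sets of names were not tested. At stage 2 itself the counts were 9 rises and 4 falls, 12 and 2, and 10 and 3 in the same order of names. As shares, the rises were 20.9%, 17.4% and 18.9%, near the array's 20.2%. In each set of names fewer stage 2 rises were called without any 1 array of stage 1 or stage 2. Such fits leave 1 array in a stage. The share of the whole array that rose was lower in these fits as well. Cit.36412.1.S1_at, the single TIR-named member, read 4.68 and 4.74 at stage 1, 4.91 and 4.72 at stage 2, and 4.68 and 4.74 at stage 3. Its arrays overlapped in every comparison, and at stage 3 against stage 1 its change was 0.00 ± 0.074 (SE).

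**Figure D2:**
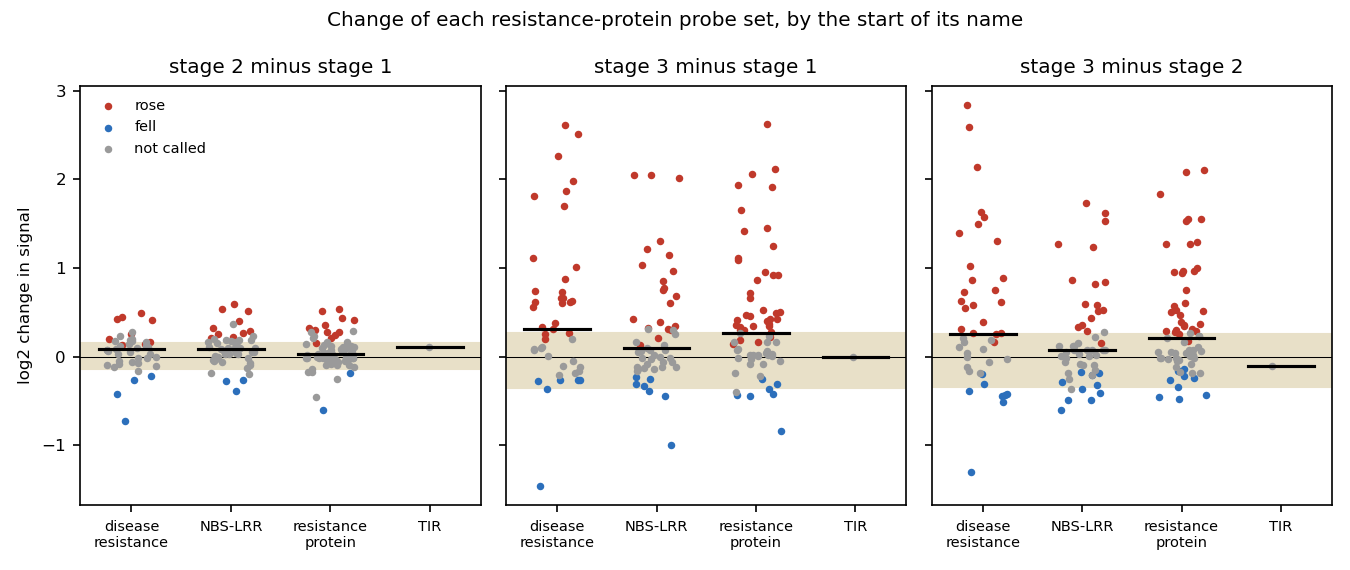
Log2 change of each of the 166 members in the 3 comparisons of stages, grouped by how the name begins, with red for rises and blue for falls at a limma adjusted p under 0.05 and grey for members not called. Black bars are group medians and the shaded band spans the middle 50% of all citrus probe sets. At stage 2 the points lie between -0.73 and 0.59, and in both comparisons with stage 3 they reach above 2 in the disease and resistance names, while the NBS-LRR names reach 2.05 against stage 1 and 1.73 against stage 2.

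Among the disease resistance names the largest rises were of 2 kinds of protein. Cit.14222.1.S1_at, whose homologue the study's annotation names a disease resistance response protein, read 7.95 and 7.97 at stage 1, 7.70 and 7.78 at stage 2 and 10.54 and 10.61 at stage 3. It was thus slightly lower at stage 2 and far higher at stage 3, with no overlap between stages. It fell by 0.22 ± 0.042 at stage 2 against stage 1 (log2, SE, limma adjusted p = 0.0148) and rose by 2.61 ± 0.042 at stage 3 against stage 1 (limma adjusted p = 4.23e-06), or 6.13-fold. The stage 2 fall lost its call without either stage 1 array (limma adjusted p = 0.0611 and 0.0757) or replicate 1 of stage 2 (0.0639). Cit.19571.1.S1_s_at has the same best protein match and read 9.87 and 9.92 at stage 1, 9.97 and 9.95 at stage 2 and 11.59 in both stage 3 arrays. Its stage 3 signals were likewise above all others (1.70 ± 0.030, limma adjusted p = 4.83e-06). These dirigent-type members belong to the list by name and are not NBS-LRR receptors.

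The other large rise in this set was that of Cit.26249.1, a target read by 2 probe sets. Cit.26249.1.S1_x_at read 4.96 and 4.94 at stage 1, 4.90 and 4.86 at stage 2 and 7.46 and 7.48 at stage 3. Cit.26249.1.S1_at read 4.29 and 4.55, then 4.40 and 4.69, and 6.66 and 6.71 at stages 1, 2 and 3. Both were thus high only at stage 3. Their stage 1 and stage 2 signals were below 5.67, the highest reporter control, where a step between these stages could go unseen. The stage 3 minus stage 1 changes were 2.51 ± 0.030 (limma adjusted p = 2.75e-06) for the x_at probe set and 2.26 ± 0.13 (limma adjusted p = 0.000118) for the other.

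Cit.35770.1.S1_at, whose homologue is a TIR-NBS-LRR protein in the study's annotation although the array's name does not say so, read 4.33 and 4.05 at stage 1, 4.52 and 4.42 at stage 2 and 6.06 and 6.05 at stage 3. It rose by 1.87 ± 0.10 at stage 3 against stage 1 (limma adjusted p = 9.54e-05). The study's annotation covers only its DEGs, so TIR-type members hidden behind other cut names were not counted. Cit.36412.1.S1_at, the single TIR-named member, stayed near background in all arrays. The signals of Cit.35770.1.S1_at at stages 1 and 2 were also below the highest reporter control. Cit.4233.1.S1_s_at rose at both steps, with 5.84 and 5.80 at stage 1, 6.33 and 6.28 at stage 2 and 7.70 and 7.91 at stage 3. Its changes against stage 1 were 0.49 ± 0.076 at stage 2 and 1.98 ± 0.076 at stage 3 (limma adjusted p = 0.00852 and 3.14e-05).

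Among the NBS-LRR names, the largest rises came from 2 targets. Cit.12682.1.S1_at read 7.08 and 7.22 at stage 1, 7.55 and 7.80 at stage 2 and 9.18 and 9.22 at stage 3, so that each stage lay above the one before it. It rose by 0.52 ± 0.099 at stage 2 and by 2.05 ± 0.099 at stage 3 against stage 1 (limma adjusted p = 0.0153 and 6.36e-05). Cit.28259.1 showed the same order of stages in both of its probe sets. Cit.28259.1.S1_x_at read 8.98 and 8.99 at stage 1, 9.32 and 9.29 at stage 2 and 10.98 and 11.08 at stage 3, a change of 2.05 ± 0.040 at stage 3 against stage 1 (limma adjusted p = 5.82e-06). Cit.28259.1.S1_at changed by 2.02 ± 0.040, and the 2 probe sets share their target and are 1 measurement of it.

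A target with 3 probe sets led the names beginning with resistance. Cit.4135.1.S1_s_at read 6.16 and 6.55 at stage 1, 6.80 and 6.95 at stage 2 and 8.97 and 9.01 at stage 3, and its changes against stage 1 were 0.52 ± 0.14 at stage 2 and 2.63 ± 0.14 at stage 3 (limma adjusted p = 0.0437 and 9.07e-05). The study's annotation names its homologue an NB-ARC protein, after the nucleotide-binding domain of these receptors. For Cit.4135.1.S1_at and Cit.4135.1.S1_x_at, the stage 3 changes against stage 1 were 1.94 and 1.91, so the 3 probe sets gave the same direction at sizes that differed by 0.71. Cit.17511.1.S1_at read 7.57 and 7.55 at stage 1, 7.81 and 7.87 at stage 2 and 9.69 and 9.68 at stage 3, with a rise of 2.12 ± 0.032 over stage 1 (limma adjusted p = 3.76e-06). Cit.30484.1.S1_at, a CC-NBS-LRR homologue in the study's annotation, was near background until stage 2. It read 4.0 and 4.05 at stage 1, 3.93 and 4.07 at stage 2 and 6.10 and 6.06 at stage 3. Its stage 1 and stage 2 signals overlapped within the range of the reporter controls, where a step between them could not be seen, and stage 3 was 2.06 ± 0.059 above stage 1 (limma adjusted p = 1.37e-05).

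**Figure D3:**
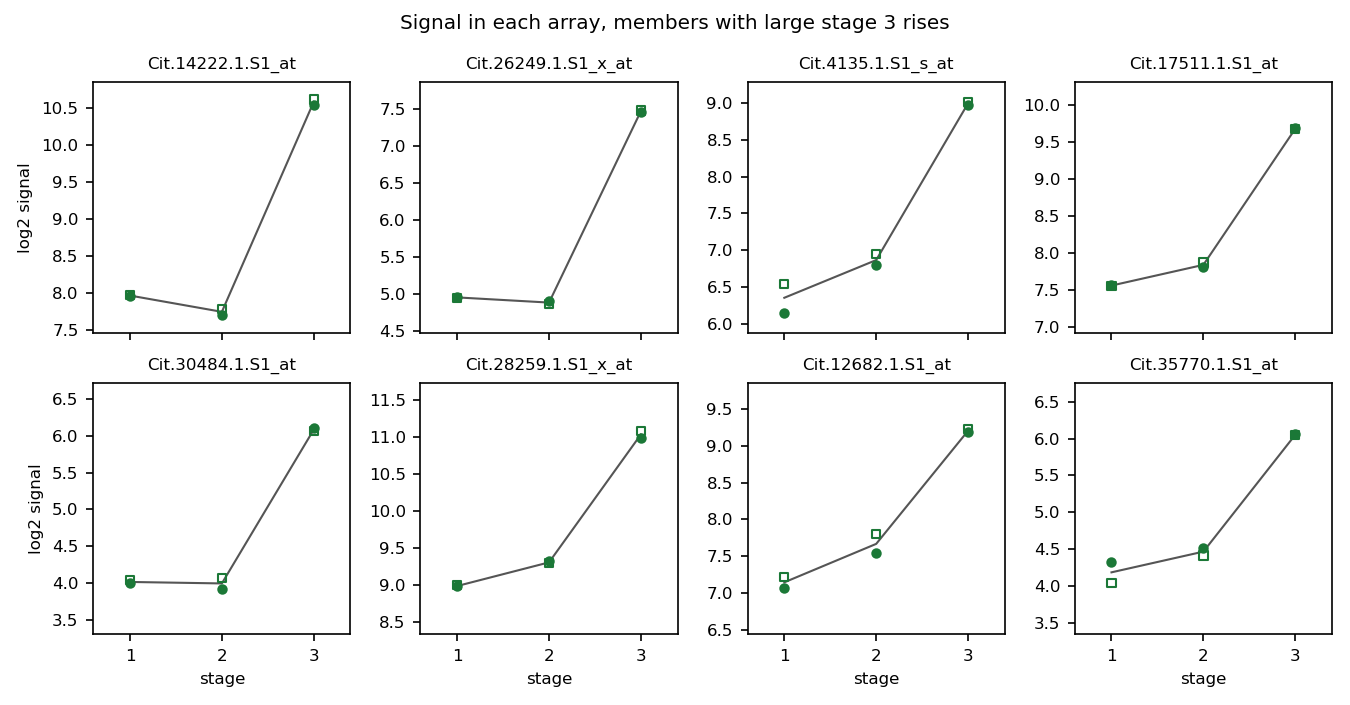
Log2 signal of 8 members with large rises in each array against stage, with filled circles for replicate 1, open squares for replicate 2 and a line through the stage means. Each panel spans 3.4 log2 units, and the stage 3 arrays of all 8 lie above their stage 1 and stage 2 arrays.

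Of the 166 members, 10 probe sets on 7 targets (Cit.12682.1, Cit.14222.1, Cit.17511.1, Cit.28259.1, Cit.30484.1, Cit.35770.1 and Cit.4135.1) are among the DEGs that the study itself listed from these arrays, so their size is not independent evidence. They are not the same 7 targets as those past the 4-fold rule in the limma fit. Both probe sets of Cit.26249.1 passed that rule and are not among the study's DEGs. Cit.35770.1.S1_at, Cit.4135.1.S1_at and Cit.4135.1.S1_x_at are among the DEGs but rose only 3.65-, 3.84- and 3.77-fold here. Without the study's DEGs the list still held rises of more than 1 log2 unit at stage 3 against stage 1. Cit.31147.1.S1_at gave 1.81, Cit.33665.1.S1_at 1.45, Cit.6738.1.S1_at 1.30, Cit.31185.1.S1_at 1.25, Cit.7110.1.S1_at 1.22, Cit.6484.1.S1_at 1.15, and Cit.35797.1.S1_at and Cit.38304.1.S1_at 1.11 each. These were named after their values were seen, and all 8 passed the test at stage 3 (limma adjusted p between 8.61e-06 and 0.00437).

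Members that share their best protein match were also read together. Whether their transcripts hybridize to each other's probes was not tested. Such sets of 4 or more held 73 of the 166 members in 11 sets. The set of Cit.4135.1 moved as one: all 5 of its probe sets, on 2 targets, rose at stage 3 against stage 1, by 1.42 to 2.63. For the other target, Cit.25161.1.S1_at read 3.83 and 3.92 at stage 1, 3.97 and 3.99 at stage 2 and 5.39 and 5.67 at stage 3. In the largest set, of 12 probe sets on 10 targets, 9 rose, with changes of 0.33 to 1.09, and 1 fell, where 29.9% of all probe sets rose and 35.9% fell. The faller, Cit.37470.1.S1_at, read 4.34 and 4.16 at stage 3, against 4.74 and 4.66 at stage 1 (-0.45 ± 0.073, limma adjusted p = 0.0048). Cit.14868.1.S1_at was its largest riser, with 7.79 and 7.87 at stage 3, against 6.70 and 6.78 at stage 1.

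The set of Cit.17511.1 and Cit.30484.1 held 11 probe sets on 9 targets. Of these, 7 rose and none fell at stage 3 against stage 1, where 29.9% of all probe sets rose and 35.9% fell. The median change of the set was 0.30. Past these 2 targets the largest change was 0.72 in Cit.31926.1.S1_at, which read 6.52 and 6.54 at stage 3, against 5.80 and 5.81 at stage 1. Both probe sets of Cit.18382.1 had stage 3 values of 0.04 or less above stage 1 and were not called. The large rises were therefore those of 2 targets, with small changes in the rest.

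Opposite calls stood side by side in the set of Cit.28259.1, with 7 NBS-LRR probe sets on 5 targets. While both Cit.28259.1 probe sets rose at stage 3 against stage 1, Cit.16485.1.S1_at fell 1.99-fold and Cit.22122.1.S1_x_at and Cit.22122.1.S1_at fell by 0.45 and 0.31. Cit.16485.1.S1_at read 5.74 and 5.66 at stage 1, 5.24 and 5.37 at stage 2 and 4.62 and 4.78 at stage 3, so that it was lower at each stage than at the one before (limma adjusted p = 0.000313 at stage 3 against stage 1). Its stage 2 fall lost its call without either stage 1 array (limma adjusted p = 0.0801 and 0.0527) or replicate 1 of stage 2 (0.0727). The remaining 2, Cit.16588.1.S1_at and Cit.6469.1.S1_at, had changes of -0.14 and 0.17 and were not called.

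Other NBS-LRR sets had smaller changes at stage 3 against stage 1, where 29.9% of all probe sets rose. In the set of Cit.14962.1 3 of 6 rose, with 0.75 in Cit.14962.1.S1_at and 0.69 in Cit.19523.1.S1_at, and in that of Cit.30977.1 3 of 5 rose, by up to 0.77, and 1 fell. Of 8 probe sets with the best match of Cit.15638.1, 3 rose, by 0.13 to 0.35, and the set of Cit.7660.1 had 3 of 7 rises, with 0.61 as its largest. The set of Cit.25099.1 held no rise among 4 and a fall of 0.39 in Cit.13159.1.S1_at. In 2 of the 12 targets with several probe sets the probe sets differed in call at stage 3 against stage 1: Cit.15638.1 and Cit.21147.1 each had 1 probe set that rose and 1 that was not called.

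**Figure D4:**
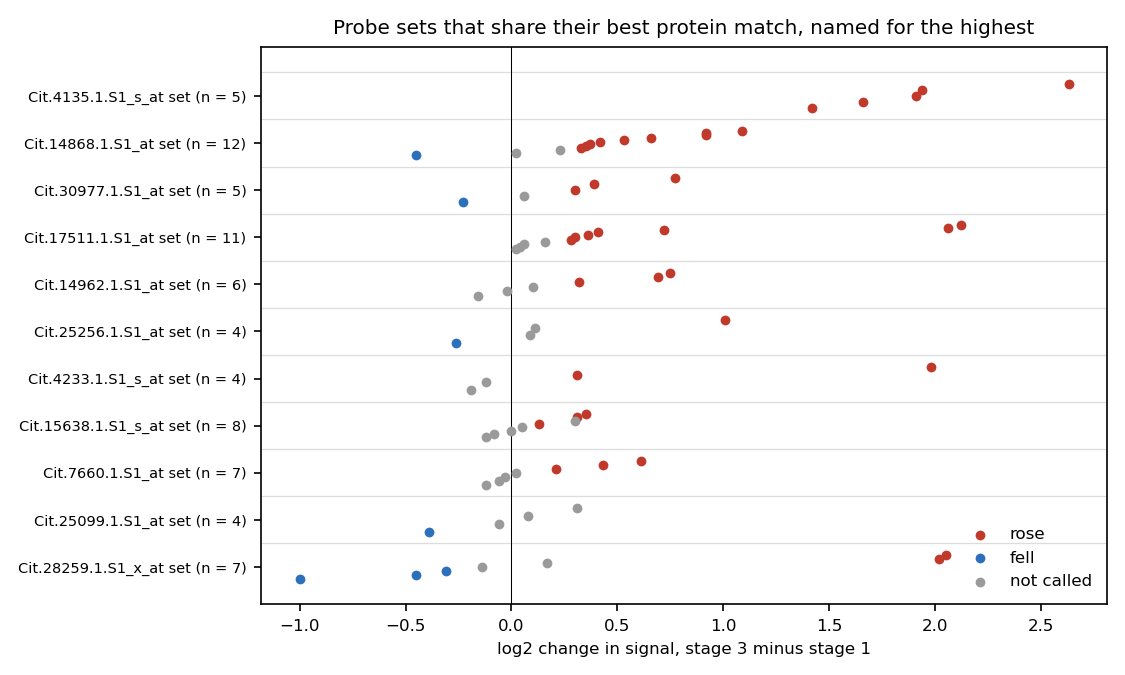
Log2 change at stage 3 minus stage 1 of the 73 members in the 11 sets of 4 or more probe sets that share their best protein match, each row named for its highest member, with red for rises, blue for falls and grey for members not called. The 5 probe sets of the top row all lie at or above 1.42, whereas the bottom row holds 2 rises, the larger of 2.05, and 3 falls.

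The beginning of self-pruning brought small steps, and the 8 largest rises at stage 2 were between 0.44 and 0.59. Cit.37277.1.S1_at, an NBS-LRR name, read 6.21 and 6.43 at stage 2, against 5.59 and 5.87 at stage 1 (0.59 ± 0.12, limma adjusted p = 0.0195). Cit.38304.1.S1_at read 5.85 and 6.05 at stage 2, against 5.27 and 5.54 at stage 1 (0.54 ± 0.13, limma adjusted p = 0.0305). The replicates of these 2 lay well apart, yet every stage 2 array was above both of stage 1. Cit.19523.1.S1_at was tighter, with 9.30 and 9.39 at stage 2, against 8.78 and 8.83 at stage 1 (0.54 ± 0.047, limma adjusted p = 0.00163). It had made most of its rise by then, since its 9.46 and 9.53 at stage 3 were 0.15 above stage 2 (limma adjusted p = 0.0438). Cit.23943.1.S1_x_at read 5.03 and 5.11 at stage 2, against 4.64 and 4.60 at stage 1, and Cit.29510.1.S1_at 6.54 and 6.36, against 6.08 and 5.95. With Cit.12682.1.S1_at, Cit.4135.1.S1_s_at and Cit.4233.1.S1_s_at, these make up the 8. Of the 8, 6 stage 2 rises lost their call without at least 1 array. Without replicate 1 of stage 1 the limma adjusted p was 0.0602 for Cit.37277.1.S1_at, 0.107 for Cit.38304.1.S1_at, 0.0743 for Cit.12682.1.S1_at and 0.063 for Cit.4135.1.S1_s_at. Without replicate 2 of stage 1 it was 0.056 for Cit.29510.1.S1_at and 0.051 for Cit.4233.1.S1_s_at. Calls were also lost without replicate 2 of stage 2 for Cit.37277.1.S1_at and without any other single array, of stage 2 or stage 3, for Cit.4135.1.S1_s_at, and for Cit.38304.1.S1_at without either stage 2 array. The step of Cit.19523.1.S1_at to stage 3 passed only with all arrays or without replicate 2 of stage 2.

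Falls at stage 2 included a pair with 1 best protein match. Cit.4414.1.S1_s_at read 8.16 and 8.14 at stage 1, 7.35 and 7.49 at stage 2 and 8.02 and 8.07 at stage 3. Its change was -0.73 ± 0.052 at stage 2 against stage 1 (limma adjusted p = 0.00103) and -0.11 ± 0.052 at stage 3 against stage 1 (limma adjusted p = 0.134). Its counterpart Cit.4413.1.S1_at read 9.04 and 9.05 at stage 1, 8.62 and 8.64 at stage 2 and 9.86 and 9.99 at stage 3. Both were lowest at stage 2, and at stage 3 Cit.4413.1.S1_at stood 0.88 ± 0.051 above stage 1 (limma adjusted p = 0.00012). The files do not tell whether these are 2 genes or parts of 1.

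In all, 7 members (the array's share was not counted) fell at stage 2 and then rose at stage 3 against stage 2. Beside this pair and Cit.14222.1.S1_at they included Cit.29509.1.S1_at, named after its values were seen, which fell by 0.18 and then rose by 0.53. Of the other 3, Cit.25220.1.S1_s_at, a disease resistance name, read 9.16 in both stage 1 arrays, 8.92 and 8.88 at stage 2 and 9.81 and 9.76 at stage 3. Cit.39544.1.S1_at, an NBS-LRR name, read 8.54 and 8.52 at stage 1, 8.22 and 8.30 at stage 2 and 8.84 and 8.86 at stage 3. Both fell at stage 2 (by 0.26 and 0.27, limma adjusted p = 0.00433 and 0.00579) and then passed their stage 1 level. Cit.14411.1.S1_at fell by 0.26 ± 0.073 at stage 2 with an adjusted p of 0.0476 in limma, just under the threshold, and lost its call without any 1 of the stage 1 or stage 2 arrays (0.0927 to 0.181).

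The opposite shape, highest at stage 2, was shallow and found in 7 members (the array's share was not counted). Cit.27842.1.S1_s_at read 4.18 and 4.34 at stage 1, 4.55 and 4.54 at stage 2 and 4.22 and 4.30 at stage 3. Cit.17404.1.S1_at read 6.48 and 6.56, then 6.75 and 6.77, and 6.52 and 6.56 at stages 1, 2 and 3. In both, the stage 2 arrays lay above all others, and stage 3 returned to within the range of stage 1. Cit.32597.1.S1_at, Cit.14412.1.S1_at and Cit.6984.1.S1_at rose by 0.32, 0.21 and 0.17 at stage 2 against stage 1 and fell by 0.16, 0.37 and 0.43 at stage 3 against stage 2. The other 2, Cit.14683.1.S1_s_at and Cit.31062.1.S1_at, the second named after its values were seen, rose by 0.14 and 0.28 at stage 2 against stage 1. Cit.27842.1.S1_s_at, Cit.6984.1.S1_at and Cit.31062.1.S1_at stayed below 5.67, the highest reporter control, in all arrays. For these shapes both contrasts use the same stage 2 arrays, so an error in those arrays would enter both. The stage 2 call of Cit.27842.1.S1_s_at was lost without replicate 1 of stage 1 (limma adjusted p = 0.0586) or either stage 2 array (0.101 and 0.0906), and that of Cit.17404.1.S1_at without replicate 2 of stage 2 (0.0527). Those of Cit.14412.1.S1_at and Cit.6984.1.S1_at were lost without any 1 of the stage 1 or stage 2 arrays. The later fall of Cit.32597.1.S1_at was lost without any 1 array other than replicate 1 of stage 3.

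Falls that lasted were few. Cit.35562.1.S1_at, a disease resistance name with a single EST, read 8.88 and 8.87 at stage 1, 8.74 and 8.69 at stage 2 and 7.30 and 7.53 at stage 3. Most of its fall came after stage 2, and at -1.46 ± 0.083 (limma adjusted p = 0.000109) it was 2.76-fold lower at stage 3 than at stage 1. Cit.27625.1.S1_at, a resistance name, fell early, with 8.27 and 8.32 at stage 1, 7.66 and 7.72 at stage 2 and 7.54 and 7.36 at stage 3. Its change was -0.60 ± 0.070 at stage 2 and -0.84 ± 0.070 at stage 3 against stage 1 (limma adjusted p = 0.00356 and 0.000401). Cit.16485.1.S1_at, the NBS-LRR name lower at each stage, lay between these 2 with its 1.99-fold fall. The next falls at stage 3 against stage 1 were of 0.45 or less, in Cit.37470.1.S1_at, Cit.22122.1.S1_x_at, Cit.6121.1.S1_at, Cit.16564.1.S1_at and Cit.13159.1.S1_at. The fall of Cit.16564.1.S1_at lost its call without either stage 1 array (limma adjusted p = 0.0563 and 0.0776). Set against stage 2, 5 of the 8 largest falls were the same probe sets, and Cit.14683.1.S1_s_at, Cit.28544.1.S1_at and Cit.25171.1.S1_at took the other places, with changes of -0.51, -0.48 and -0.44. Cit.14683.1.S1_s_at read 10.42 and 10.40 at stage 3, against 10.93 and 10.90 at stage 2 (SE 0.027, limma adjusted p = 9.62e-05).

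**Figure D5:**
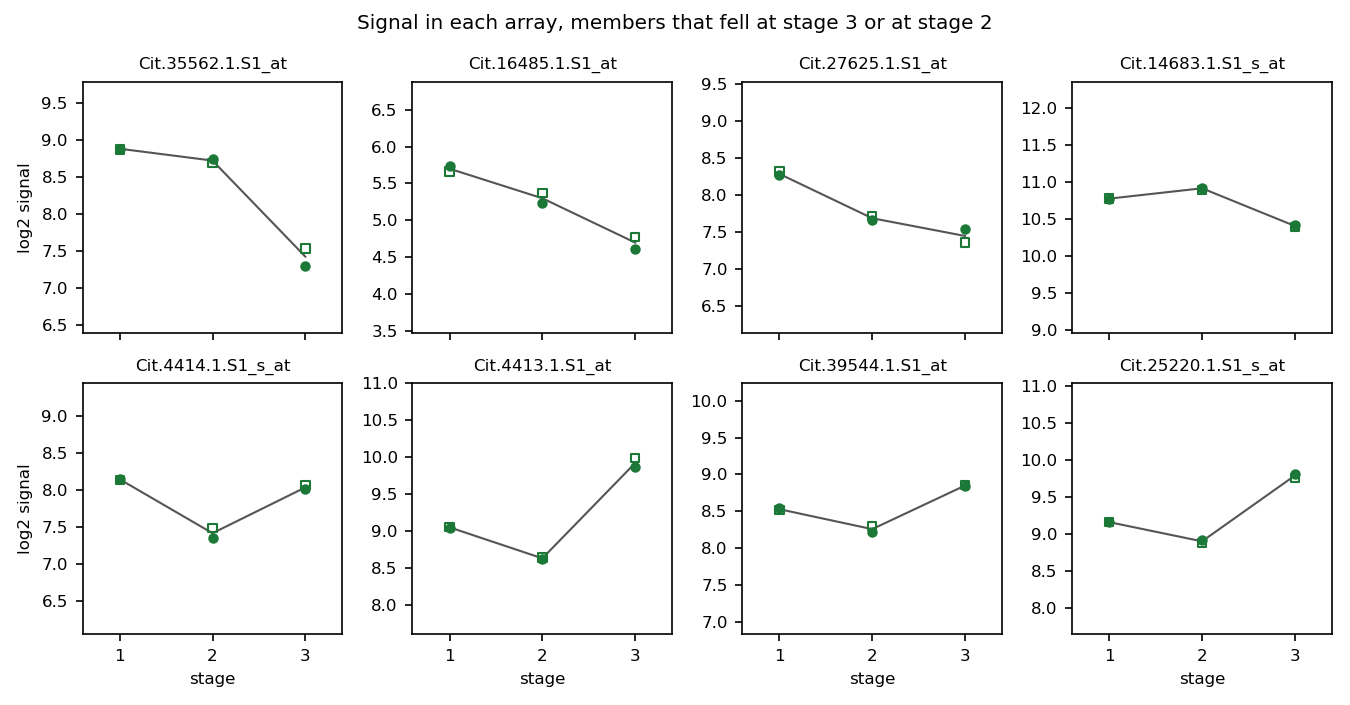
Log2 signal of 8 members in each array against stage, with filled circles for replicate 1, open squares for replicate 2 and a line through the stage means, each panel spanning 3.4 log2 units. The upper row holds members lower at stage 3 than at stage 1, and in the lower row the stage 2 arrays of all 4 are the lowest.

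Names just outside the rule included large changes. The array cuts names short, and 5 probe sets have names cut to disea or diseas, 8 are named CC-NB-LRR and 2 carry other resistance names. Among these 15, chosen for mention after their values were seen, Cit.15470.1.S1_at differed by -2.98 at stage 3 against stage 1 (limma adjusted p = 1.89e-06). Cit.19813.1.S1_x_at, Cit.19813.1.S1_at and Cit.2113.1.S1_at were 2.24, 2.13 and 1.95 higher. Taking in all 15 gave 89 rises and 22 falls among 181 probe sets, or 49.2% and 12.2%. Since 166 of these are the members themselves, shares close to theirs were largely fixed in advance. At stage 3 against stage 1 the 15 alone gave 5 rises and 2 falls, with a median change of -0.1. These are 33.3% and 13.3%, beside 29.9% and 35.9% of the array.

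Genes that act with these receptors were read from a list of 18 probe sets named for EDS1, NPR1 or NIM1, SGT1, LSD1, MLO and their interactors. At stage 3 against stage 1, 5 rose and 7 fell, with a median change of -0.01. These are 27.8% and 38.9%, near the array's 29.9% and 35.9%. At stage 2 against stage 1, 1 rose and 2 fell, or 5.56% and 11.1%, beside 20.2% and 21.5% of the array. EDS1, the lipase-like protein that TIR receptors signal through, gave the largest rise after stage 2. Cit.29252.1.S1_s_at read 8.12 and 8.18 at stage 1, 7.85 and 7.92 at stage 2 and 9.46 in both stage 3 arrays. It was 0.26 lower at stage 2 and 1.31 ± 0.038 higher at stage 3 than at stage 1 (limma adjusted p = 0.00676 and 1.49e-05). The second probe set of this target, Cit.29252.1.S1_at, was 0.88 ± 0.14 higher at stage 3 (limma adjusted p = 0.00423). Its stage 2 change of -0.22 was not called (limma adjusted p = 0.279). The other EDS1-named target, Cit.25968.1.S1_at, had a change of 0.23 ± 0.11 at stage 3 that did not pass the test (limma adjusted p = 0.12).

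NPR1, known in Arabidopsis as a receptor and co-activator of salicylic acid responses, moved differently from its partner. Cit.36110.1.S1_at, an NPR1/NIM1-interacting name, read 6.37 and 6.56 at stage 1, 8.16 and 8.11 at stage 2 and 8.30 and 8.33 at stage 3. It was up by 1.67 ± 0.068 at stage 2 against stage 1 (limma adjusted p = 0.000269), with little more at stage 3. Cit.31251.1.S1_at, named NPR1, read 7.73 and 7.74 at stage 1, 7.70 and 7.84 at stage 2 and 6.68 and 6.85 at stage 3, a fall of 0.97 ± 0.079 at stage 3 against stage 1 (limma adjusted p = 0.000387). NIM1-like probe sets split in direction at stage 3, with Cit.4919.1.S1_at at 0.52 and Cit.21969.1.S1_at at 0.35 above stage 1 and Cit.4918.1.S1_at 0.35 below it. Cit.37703.1.S1_at, named for enhanced disease, fell by 0.45. SGT1, a co-chaperone needed for receptor stability, fell by 0.29 in Cit.40117.1.S1_s_at, while the second probe set of that target did not pass the test at stage 3 against stage 1.

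A list of 13 probe sets for cell death and the oxidative burst gave 5 rises and 2 falls at stage 3 against stage 1, and 2 and 4 at stage 2. The stage 3 shares, 38.5% and 15.4%, stand beside 29.9% and 35.9% of all probe sets. Those of stage 2, 15.4% and 30.8%, stand beside 20.2% and 21.5%. The 2 probe sets of Cit.22079.1, a hypersensitive name, had opposite calls at stage 3 against stage 1. The change was 0.60 in Cit.22079.1.S1_s_at and -0.31 in Cit.22079.1.S1_x_at. Without either stage 1 array the falls came to 1 at stage 3 and 2 at stage 2. Cit.25942.1.S1_s_at, named HIN1 for a gene that bacterial harpin induces in tobacco, read 7.07 and 7.25 at stage 1, 6.61 and 6.62 at stage 2 and 9.69 and 9.74 at stage 3. It was lowest at stage 2 and rose by 2.55 ± 0.067 over stage 1 at stage 3 (limma adjusted p = 1.13e-05). The second probe set of the same target stayed between 3.66 and 3.95 and was not called. Cit.28810.1.S1_s_at, an NADPH oxidase name of the kind that makes superoxide at the membrane, read 10.01 and 10.04 at stage 1, 10.45 and 10.46 at stage 2 and 11.42 in both stage 3 arrays, a rise at each step. Bax inhibitor, a suppressor of cell death, rose by 0.74 at stage 3 against stage 1 in Cit.22028.1.S1_at and was 0.02 higher, not called, in Cit.35528.1.S1_s_at. Of the 13, 3 are NADPH oxidoreductase names, which are not burst oxidases, and 1 of those rose and 1 fell at stage 3 against stage 1.

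Defence outputs, 44 probe sets named for pathogenesis-related proteins, thaumatin, osmotin, snakin and WRKY factors, gave 18 rises and 15 falls at stage 3 against stage 1, and 11 and 16 at stage 2 (6 rises without either stage 1 array or replicate 2 of stage 2). The rises at stage 3 were 40.9% of the list, above the array's 29.9%, whereas the falls at stage 3 were 34.1%, near its 35.9%. At stage 2 the array's shares were 20.2% and 21.5%. Names of this kind cover products that receptor activation can induce and factors that control them, a link not tested here. Changes in the list were large in both directions. Cit.31825.1.S1_at, a pathogenesis-related name, read 7.73 and 7.92 at stage 1, 8.70 and 8.76 at stage 2 and 11.07 in both stage 3 arrays (3.25 ± 0.071 at stage 3 against stage 1, limma adjusted p = 7.22e-06). Cit.21717.1.S1_at, another such name, read 9.20 and 9.16 at stage 1, 5.97 and 6.13 at stage 2 and 5.29 and 5.26 at stage 3 (-3.91 ± 0.058, limma adjusted p = 3.7e-06). These 2 were the extremes of the list and were picked after their values were seen.

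Other features of the tissue moved with stage 3. The difference between the 3′ and the 5′ actin control probe sets, which grows as RNA is degraded, was 1.62 and 1.66 at stage 3, against 1.87 and 1.94 at stage 1 and 1.89 and 1.93 at stage 2. Of 6 chlorophyll a/b-binding probe sets, which mark photosynthetic cells, 5 fell and none rose at stage 3 against stage 1, and their mean signal was 8.84 to 8.86 at stage 3, against 9.19 to 9.22 at stage 1. Of 4 phloem-named probe sets 3 rose and 1 fell, with a mean signal of 7.24 to 7.26 at stage 3, against 6.97 to 6.98 at stage 1. For the labelled meristem there were 2 markers: knotted (Cit.10480.1.S1_at) was 0.70 higher and CLAVATA1 receptor (Cit.37590.1.S1_at) 1.01 lower at stage 3 than at stage 1, and no xylem name was found. The part of these shifts in the members' rises was not tested. In such mixed tissue fewer cells of a type and less RNA per cell cannot be told apart. The array's 44 pathogen probe sets gave mean signals of 3.42 to 5.18 at stage 3 and 3.43 to 5.49 at stage 1, and none read above 5.54 in any array.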

How the data were processed

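Log2 signals of 6 Affymetrix Citrus arrays were used, 2 per stage. Per the methods, the authors made these log2 values from scanner files by robust multi-array average (RMA) with Expression Console; Microarray Suite is named as well. A second deposited table holds log2 stage means, target descriptions, and the authors' own p-values, ratios and fold changes, which were not used. Its stage means matched the means of the arrays to within 7e-05. Depth has no meaning for arrays, whose number limits the precision. The 30171 citrus probe sets were fitted, of which 1 had no description. Names are cut short by the description field. No genome positions or sequences were used here.

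One linear model over all 6 arrays, without covariates, was used (limma 3.58.1, R 4.3.3; lmFit and eBayes) and checked on simulated data, with Benjamini-Hochberg adjustment over all citrus probe sets and a threshold of 0.05. SE is limma's moderated standard error. Replicate shoots came from groups of trees per the methods, and which group an array holds is not given in the sources used here. The significance analysis of microarrays named in the methods was not run. Members, lists and alternatives were chosen with earlier results of these data known. Named genes were, per comparison, the 8 largest rises and the 8 largest falls past the threshold without overlap between arrays, the 5 members highest and the 5 lowest at stage 2, members among the study's DEGs, and up to 8 signalling partners. Counts used pandas 2.3.3 and numpy 2.4.6 under Python 3.11.15, and plots matplotlib 3.10.9.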

Additional observations from a re-analysis of the deposited data

How the results depend on the processing

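With 2 arrays per stage and no detection calls, small changes of dim members are the least certain. Of 114 alternative member counts, 94 stayed within 1.5 times the reported one. Without moderation of the variances, rises at stage 2 against stage 1 came to 17, or 10.2%, beside 16.5% of the array. Under the study's DEG thresholds (4-fold, p 0.001 unadjusted), stage 2 gave 0 rises and 0 falls against stage 1, and stage 3 gave 9 and 0 against stage 1 and 5 and 0 against stage 2. With 1 probe set per protein match (86 members) the 3 comparisons gave 18 rises and 4 falls, 48 and 12, and 42 and 14 in the same order. As shares of the 86, the rises were 20.9%, 55.8% and 48.8% and the falls 4.65%, 14.0% and 16.3%. Refitted on probe sets with a mean signal of at least 6 over all arrays (68 members, some only through their stage 3 signal), stage 3 gave 46 rises and 11 falls against stage 1 and 47 and 13 against stage 2. Against stage 1 that is 67.6% and 16.2%, beside 38.0% and 47.8% of all probe sets refitted. Against stage 2 it is 69.1% and 19.1%, beside 38.1% and 46.5%. Since the filter itself uses the stage 3 signals, it favours probe sets that are high at stage 3. These larger shares of rises are therefore no support for the main result. These last settings count fewer members by construction. Under array centring, 60.7% of all calls at stage 2 against stage 1 were upward on the whole array, instead of 48.4%, and 80.9% instead of 77.5% among the members. After the data were seen, a wider rule for names and 1 probe set per target were added, and both stayed within 1.5 times in all 6 counts. Both share most of their probe sets with the members, so a large difference was unlikely from the start.

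Leaving out each array in turn gave 15 to 27 rises and 5 to 10 falls at stage 2 against stage 1, with the lowest counts without replicate 1 of stage 1 and 18 rises without replicate 2 of stage 2. At stage 3 it gave 72 to 84 rises and 17 to 22 falls against stage 1 and 59 to 71 and 21 to 25 against stage 2. At stage 2 against stage 1, disease names then gave 4 to 7 rises, NBS-LRR names 3 to 11 rises and 1 to 4 falls, resistance names 1 to 3 falls, signalling partners 1 to 2 rises, the cell death list 2 to 3 falls and defence outputs 6 to 10 rises. The cell death list gave 1 to 2 falls at stage 3 against stage 1 and 0 to 2 against stage 2, and resistance names 6 to 10 falls at stage 3 against stage 2. Counts more than 1.5 times away came without an array of the 2 stages compared, except for 1 fall of the resistance names at stage 2 without either stage 3 array. Over the whole array, too, smaller shares rose and fell when an array of the 2 stages compared was left out. Quantile normalization gave 1 fall in the resistance names at stage 2.

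Replicate numbers were not taken as pairing, since the labels do not say what they mark and each comparison holds 2 pairs. Differences between replicate 1 and replicate 2 correlated at 0.561, 0.475 and 0.463 between stages, across probe sets. With the number as a block, 43 members rose and 12 fell at stage 2 against stage 1, 90 and 23 at stage 3 against stage 1, and 79 and 36 at stage 3 against stage 2. The members' rises were then 25.9%, 54.2% and 47.6%, beside 24.8%, 32.9% and 31.7% of the array. Their falls were 7.23%, 13.9% and 21.7%, beside 25.2%, 39.4% and 40.5%. With this replicate block, NBS-LRR names had 16 rises and resistance names 5 falls at stage 2. For single named members, 1411 of the 1641 alternative values, called or not, stayed on their side of the threshold, 210 lost their call, 87 of them at the 4-fold rule, 20 gained one and none changed direction while called.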
